A study of Homo sapiens with 12 samples.

Results

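The 6 vehicle libraries of the 12 in the series were compared to find which genes change when a mutant phosphoinositide 3-kinase is expressed in the absence of added insulin. The members were chosen by their labels, 3 H1047R vehicle libraries and 3 control vehicle libraries, and all 22756 genes that averaged at least 1 count per library were tested. The cells were 12Z, an immortalized epithelial line established from endometriosis, a disease in which tissue like the lining of the uterus grows outside it. All cells carried a non-targeting siRNA. H1047R vehicle cells were then transfected with a pBabe plasmid encoding PIK3CA*H1047R, control vehicle cells with pBabe without an insert, and both were held in serum-free medium for 4 h and given vehicle for 24 h. The other 6 libraries received the same plasmids with 100 nM insulin in place of vehicle, and they enter below where the same genes were read in them. Each group held 3 independent experiments in the 1 line. The transfection was transient, so not every cell need carry the plasmid, and in bulk libraries more cells with a transcript and more of it per cell cannot be told apart.

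PIK3CA encodes p110 alpha, the catalytic subunit of a class I phosphoinositide 3-kinase. The enzyme is held by a regulatory subunit and recruited by receptors such as the insulin receptor, and its lipid product activates AKT and, through it, mTORC1, while AKT keeps FOXO transcription factors out of the nucleus. H1047R lies in the kinase domain and raises the activity of the enzyme. Interferon-stimulated genes, to which many of the changed genes below belong, are switched on when interferons bind their receptors or when sensors of foreign nucleic acid activate interferon regulatory factors. Many of them carry an interferon-stimulated response element before their start site.

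In H1047R vehicle cells, 36 genes were differentially expressed against control vehicle cells at a false discovery rate (FDR) below 0.001, that is 0.158% of the genes tested. Of these, 32 were higher (0.141% of genes) and 4 were lower (0.0176% of genes). Among the genes that rose, 18 belonged to lists of interferon-stimulated genes and nucleic acid sensors, and these held 13 of the 16 genes that rose over 2-fold. Without replicate 1 of H1047R vehicle, 7 of the 16 were over 2-fold, and 6 of the 7 were interferon genes. Of the called genes, RSAD2 and OAS2 had the largest fold changes, with log2 fold changes of 2.98 ± 0.413 and 2.26 ± 0.354 (SE). The other 14 genes that rose included PIK3CA itself, ATF3, CHAC1 and SLC3A2. POSTN, GAS1, GASK1B and EDIL3 were the 4 genes that fell, none of them by 2-fold. Replicate 1 of H1047R vehicle stood apart from replicates 2 and 3 in most of these genes, and each called gene described is therefore given with and without it.

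Of the 9 quality measures, 1 separated the groups. Total gene counts ranged from 23766993 to 25872417 in H1047R vehicle and from 21483124 to 28386143 in control vehicle. Counts of the mitochondrial genome made up 2.78 to 2.90% of each H1047R vehicle library and 2.92 to 2.96% of each control vehicle library, so the groups did not overlap (exact permutation test, two-sided, p = 0.1, the smallest value that 3 against 3 libraries allow). The p-values of the other 8 quality measures ranged from 0.7 to 1 in the same exact test. Replicate 1 of H1047R vehicle differed more from its partners than they did from each other, with a chi-square per degree of freedom of 5.28 against replicate 2 and 5.90 against replicate 3, and of 2.76 between replicates 2 and 3. The pairs of the other groups lay between 2.70 and 4.88. On the first principal component of all 12 libraries, which held 70.6% of the variance, replicates 1, 2 and 3 of H1047R vehicle were at 2.94, -11.1 and -9.04, control vehicle at -17.2, -16.3 and -17.8, and H1047R insulin between 37.5 and 40.1. The share of reads placed at several sites was 14.9% in replicate 1 of H1047R vehicle, 15.2 and 14.3% in replicates 2 and 3, and 8.48 to 9.51% in H1047R insulin.

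The labelled cell type was compared with its markers. The keratins KRT8, KRT18, KRT19 and KRT7 averaged 1445, 969, 605 and 61.1 CPM (counts scaled to library size) over the 6 libraries. EPCAM and CDH1, which define epithelium with junctions, averaged 0.541 and 1.94 CPM, and GRHL2 had no count. The mesenchymal genes VIM and COL1A1 averaged 1991 and 2856 CPM. The labelled epithelial line thus held abundant keratins, with the junction markers at low levels. None of the 13 epithelial, 14 stromal, 10 immune or 6 endothelial marker genes tested was called. The stromal markers summed to 8052 to 8305 CPM in H1047R vehicle and 8520 to 8567 CPM in control vehicle. The immune markers summed to 4.91 to 5.85 CPM in H1047R vehicle and 6.77 to 6.92 CPM in control vehicle, so that neither sum overlapped between the groups. Most of the immune sum was 1 gene, CD14, with a mean of 3.99 CPM (log2 fold change -0.53, adjusted p = 0.034). Of the 10 immune markers 3 had a positive log2 fold change, among them ITGAX. At an FDR below 0.05, 3 stromal markers were lower and 1 higher (0.589% and 0.624% of all genes). The epithelial markers summed to 3057 to 3265 CPM in H1047R vehicle and 2991 to 3079 CPM in control vehicle, and the endothelial markers to 7.70 to 9.30 CPM in H1047R vehicle and 8.03 to 9.49 CPM in control vehicle. The part of these sums in the results was not tested. Of the immune markers, CD3E, NKG7, IL3RA and CLEC4C had no count in any of the 6 libraries.

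The transfected gene was read first. PIK3CA (chromosome 3, 179148114 to 179240093 in hg38, ENSG00000121879.5) was at 312, 180.1 and 215 CPM in H1047R vehicle, against 88.96, 88.2 and 88.6 CPM in control vehicle. Every H1047R library was above every control library, and replicate 1 was the highest, followed by replicate 3 and then replicate 2. The means were 235 ± 68.2 CPM in H1047R vehicle and 88.6 ± 0.382 CPM in control vehicle (SD, n = 3), a log2 fold change of 1.41 ± 0.0886 (SE, adjusted p = 2.73e-14). Without replicate 1 it was 1.15 ± 0.0479 (adjusted p = 5.87e-31), and the call held with each of the 6 libraries left out and under each of the 14 settings tried. Gene counts do not separate transcripts of the plasmid from those of the chromosomal gene. For PIK3CA alone, an exact permutation test over the 6 libraries gave p = 0.1, the smallest value it can give. With insulin, PIK3CA reached 734, 714 and 715 CPM in H1047R libraries and 81.0, 85.9 and 80.9 CPM in control libraries, so its log2 fold change was smaller with vehicle than with insulin (difference of the log2 fold changes 1.72, adjusted p = 3.82e-14).

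**Figure D1:**
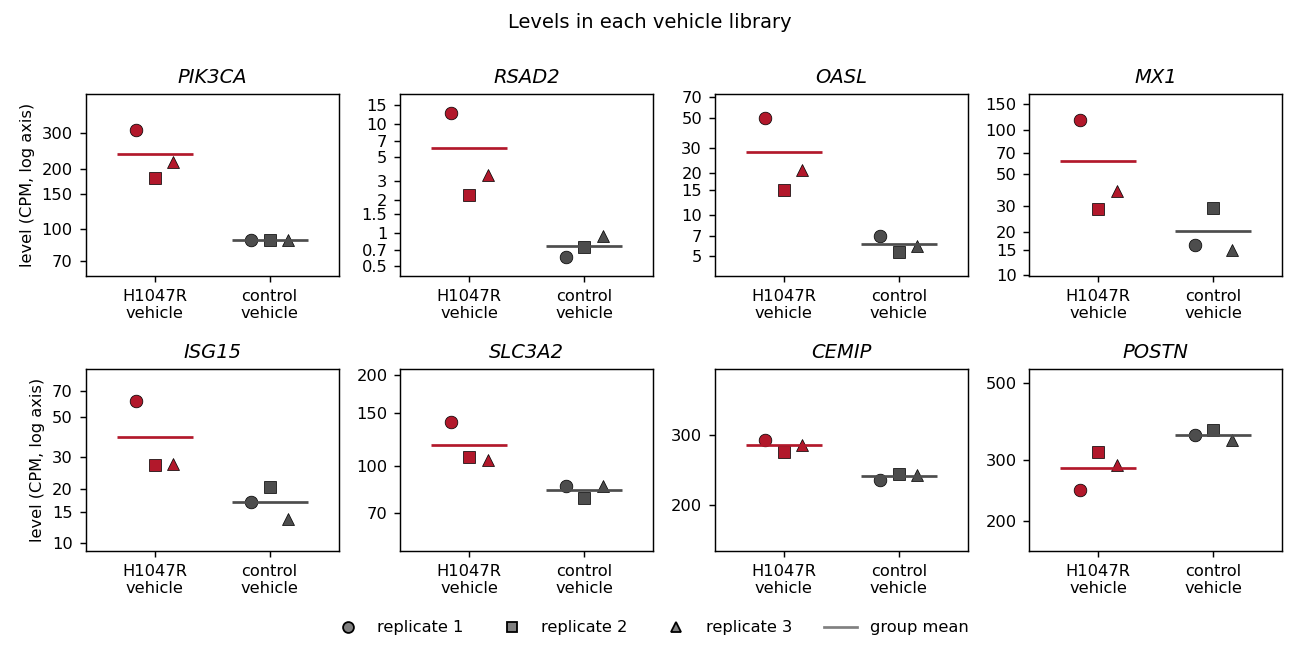
Level of 8 genes in each vehicle library, in CPM on a log axis, with H1047R vehicle in red left of control vehicle in grey; circles, squares and triangles are replicates 1, 2 and 3 and lines are group means. Replicate 1 of H1047R vehicle has the most PIK3CA (312 CPM) and the most RSAD2, OASL, MX1, ISG15, SLC3A2 and CEMIP and the least POSTN of its group, and MX1 is the gene shown whose groups overlap.

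The other genes of the PI3K pathway did not pass the test. Of 38 tested members, PIK3CA was called and no other, and the median log2 fold change of the list was -0.01, beside 0.00 for all genes. The 36 other members above 1 CPM had log2 fold changes between -0.30 (DEPTOR, an inhibitor of mTOR) and 0.14 (PIK3R1, the main regulatory subunit), each with an SE between 0.0382 and 0.205, and the lowest adjusted p among them was 0.242. The insulin receptor adaptor IRS2 was at 21.7, 20.6 and 22.3 CPM in H1047R vehicle, against 20.8, 21.5 and 22.6 CPM in control vehicle, so that the groups overlapped. Transcript counts do not report the activity of the kinases.

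FOXO factors and their targets, of which 26 were tested, had no called member and a median log2 fold change of -0.03. CDKN1B, a cyclin-dependent kinase inhibitor, was at 127, 133 and 142 CPM in H1047R vehicle, against 164, 146 and 151 CPM in control vehicle (-0.20 ± 0.0449, adjusted p = 0.0146). BNIP3, a mitophagy receptor, was at 218, 186 and 176 CPM in H1047R vehicle, against 171, 167 and 164 CPM in control vehicle (0.21 ± 0.0557, adjusted p = 0.0532). Neither passed the threshold, and BNIP3 was at 0.11 and CDKN1B at -0.17 without replicate 1. The range among the 23 members above 1 CPM ran from -0.22 (FOXO1) to 0.23 (TXNIP).

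Interferon-stimulated antiviral effectors were the largest group of changed genes. Of 64 members tested, 15 rose and none fell at the 0.001 threshold (0.141% of all genes rose and 0.0176% fell). A positive log2 fold change was held by 62, beside 50.5% of all genes tested. The median over the 64 was 0.35, beside 0.00 for all genes, and 0.15 without replicate 1. At an FDR below 0.05, 32 members were higher and none lower (0.624% of all genes were higher and 0.589% lower at that threshold). Without replicate 1 of H1047R vehicle, 9 were called at 0.001 and 19 at 0.05. In each library, the median member stood at 0.59, 0.14 and 0.22 log2 units above the control mean in replicates 1, 2 and 3 of H1047R vehicle, against -0.02, 0.08 and -0.06 in control vehicle.

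The promoters of these genes were read in the same reference build, and 8 of those that carry the core of the interferon-stimulated response element are shown for genes whose values follow. The motif searched was GAAANNGAAA on either strand, in windows from 250 bases before to 50 bases after each start in RefSeq (GRCh38.p14), and it was found in 1195 of 27305 genes (4.38%) and in 534 of the 13370 tested genes that matched the promoter table (3.99%). Among the called interferon genes it was found in 10 of the 14 that matched (71.4%), and in none of the 12 matched of the other 14 genes that rose. The interferon genes were grouped by list membership, and listed genes that were not called were not counted as a group. These shares therefore do not bear on which interferon genes responded to H1047R. POSTN was the 1 of the 4 genes that fell with a match. MX1 and DTX3L also had a match and are not shown, HERC6, OAS1, RIGI and XAF1 had no match in this window, and OAS2, OASL, IFIT2 and MX2 were not matched. The promoter of RSAD2, which had the largest fold change of the called genes, is given over the 250 bases before its start at chr2:6877527-6877776 (plus strand), and for 7 others 44 bases around the motif are given. These are BST2 at chr19:17405734-17405777 (minus strand), IFI44 at chr1:78649745-78649788 (plus strand), HERC5 at chr4:88456977-88457020 (plus strand), DDX60 at chr4:168318814-168318857 (minus strand), ISG15 at chr1:1013367-1013410 (plus strand), IFIT3 at chr10:89327824-89327867 (plus strand) and OAS3 at chr12:112938314-112938357 (plus strand). Each is written 5′ to 3′ on the strand of its gene, with motif matches in capitals, overlapping matches run together. For genes with several starts in the table, such as RSAD2 and IFI44, the start shown is one with a match.
RSAD2: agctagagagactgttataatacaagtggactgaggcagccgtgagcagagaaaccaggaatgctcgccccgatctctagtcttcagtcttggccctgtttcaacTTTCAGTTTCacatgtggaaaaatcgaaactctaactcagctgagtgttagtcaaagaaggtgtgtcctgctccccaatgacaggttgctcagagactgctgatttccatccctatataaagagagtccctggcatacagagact
BST2: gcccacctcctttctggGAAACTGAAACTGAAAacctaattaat
IFI44: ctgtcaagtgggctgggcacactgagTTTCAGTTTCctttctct
HERC5: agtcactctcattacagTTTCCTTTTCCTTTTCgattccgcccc
DDX60: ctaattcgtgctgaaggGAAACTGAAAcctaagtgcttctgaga
ISG15: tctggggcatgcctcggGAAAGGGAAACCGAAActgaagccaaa
IFIT3: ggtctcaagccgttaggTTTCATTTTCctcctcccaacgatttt
OAS3: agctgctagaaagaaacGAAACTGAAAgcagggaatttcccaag
A match is a string of letters and was not tested as a binding site.

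RSAD2 (chromosome 2, 6865557 to 6898239 in hg38, ENSG00000134321.12) encodes viperin, an enzyme that makes a chain-terminating nucleotide. It was at 12.5, 2.22 and 3.40 CPM in H1047R vehicle, against 0.609, 0.750 and 0.933 CPM in control vehicle. The 3 H1047R libraries were above the 3 control libraries and in the order of their PIK3CA levels, but replicate 1 held several times more than the others. The means were 6.05 ± 5.65 CPM in H1047R vehicle and 0.764 ± 0.163 CPM in control vehicle (SD, n = 3), and the log2 fold change was 2.98 ± 0.413 (adjusted p = 2.46e-05). Without replicate 1 it was 1.88 ± 0.231 (adjusted p = 3.38e-08). The call was lost without control vehicle replicate 2 (adjusted p = 0.00123), and DESeq2 gave an adjusted p of 0.00108.

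The oligoadenylate synthetase family reads double-stranded RNA and activates RNase L, and 4 of its genes rose. OASL, a member without synthetase activity that aids RIG-I signalling, was at 49.2, 14.9 and 20.8 CPM in H1047R vehicle, against 6.97, 5.42 and 5.93 CPM in control vehicle (2.21 ± 0.231, adjusted p = 1.02e-07). OAS2 was at 40.9, 6.82 and 13.3 CPM in H1047R vehicle, against 3.69, 6.39 and 2.01 CPM in control vehicle (2.26 ± 0.354, adjusted p = 0.000186). In both genes no H1047R library overlapped the controls, though control replicate 2 came close to H1047R replicate 2 for OAS2. OAS1 was at 29.3, 7.48 and 8.20 CPM in H1047R vehicle, against 3.997, 6.07 and 2.66 CPM in control vehicle (1.76 ± 0.306, adjusted p = 0.000747). OAS3, which was named after its values were seen, was at 247, 111 and 121 CPM in H1047R vehicle, against 85.7, 102 and 82.7 CPM in control vehicle (0.82 ± 0.144, adjusted p = 0.000829). For both, replicates 2 and 3 lay just above the highest control and replicate 1 far above. Without replicate 1 the log2 fold changes were 1.54 ± 0.107 for OASL, 1.25 ± 0.202 for OAS2, 0.84 ± 0.172 for OAS1 and 0.35 ± 0.0673 for OAS3, with adjusted p-values of 1.51e-18 for OASL, 6.33e-05 for OAS2, 0.00529 for OAS1 and 0.00178 for OAS3. OASL kept its call with each library left out. The highest adjusted p with 1 library left out was 0.00448 for OAS2 (without control vehicle replicate 3), 0.0142 for OAS1 and 0.0147 for OAS3 (both without control vehicle replicate 1). DESeq2 put OASL at 0.000135, OAS2 at 0.038, OAS1 at 0.0675 and OAS3 at 0.233. The OAS genes resemble each other, and reads placed at several sites were not counted.

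The dynamin-like GTPases MX1 and MX2, which block incoming viral particles, also rose. MX1 was at 118, 28.4 and 37.9 CPM in H1047R vehicle, against 16.3, 29.2 and 14.8 CPM in control vehicle. It was the 1 called gene of 36 whose groups overlapped, since control replicate 2 was above H1047R replicate 2. Its log2 fold change was 1.58 ± 0.269 (adjusted p = 0.000617), and 0.69 ± 0.134 without replicate 1 (adjusted p = 0.00217). MX2 was at 25.3, 6.85 and 8.12 CPM in H1047R vehicle, against 3.43, 5.03 and 2.52 CPM in control vehicle, with a log2 fold change of 1.83 ± 0.310 (adjusted p = 0.000617), and 0.99 ± 0.199 without replicate 1 (adjusted p = 0.00396). Leaving out control vehicle replicate 1 gave the highest adjusted p for both, 0.0153 for MX1 and 0.0122 for MX2, and DESeq2 gave 0.149 for MX1 and 0.0456 for MX2.

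BST2 encodes tetherin, which holds budding virus at the cell surface, and was at 15.5, 3.58 and 4.56 CPM in H1047R vehicle, against 2.40, 2.39 and 0.933 CPM in control vehicle (1.98 ± 0.325, adjusted p = 0.000397). IFI44, an interferon-induced gene of less certain function, was at 23.1, 6.97 and 8.91 CPM in H1047R vehicle, against 3.43, 4.18 and 2.57 CPM in control vehicle (1.90 ± 0.247, adjusted p = 8.54e-06). In both, replicate 1 stood well above replicates 3 and 2, in that order, and no control library reached them. DDX60, a helicase linked to RNA sensing, was at 88.2, 36.9 and 40.97 CPM in H1047R vehicle, against 22.9, 25.3 and 24.7 CPM in control vehicle (1.18 ± 0.153, adjusted p = 8.02e-06). XAF1, a promoter of apoptosis that antagonizes XIAP, was at 37.0, 14.4 and 17.4 CPM in H1047R vehicle, against 9.71, 12.2 and 8.59 CPM in control vehicle (1.15 ± 0.185, adjusted p = 0.000301). The same order of replicates held for both. Without replicate 1 the log2 fold changes were 1.03 ± 0.194 for BST2, 1.19 ± 0.133 for IFI44, 0.67 ± 0.0625 for DDX60 and 0.62 ± 0.108 for XAF1, and of these BST2 was no longer called (adjusted p = 0.00138). IFI44 and DDX60 kept their calls with each library left out, while BST2 reached 0.00659 without control vehicle replicate 3 and XAF1 0.00558 without control vehicle replicate 1. DESeq2 called none of the 4, with adjusted p-values of 0.0399 for BST2, 0.00339 for IFI44, 0.0239 for DDX60 and 0.072 for XAF1.

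The IFIT proteins bind foreign RNA. IFIT2 was at 92.7, 46.8 and 52.8 CPM in H1047R vehicle, against 33.5, 36.9 and 35.4 CPM in control vehicle (0.86 ± 0.116, adjusted p = 1.52e-05), and IFIT3, named after its values were seen, at 134, 60.8 and 71.95 CPM in H1047R vehicle, against 47.96, 55.2 and 45.7 CPM in control vehicle (0.83 ± 0.130, adjusted p = 0.000186). Without replicate 1 they were at 0.49 ± 0.0571 and 0.41 ± 0.0599, both still called. IFIT2 kept its call with each library left out, while IFIT3 reached 0.00398 without control vehicle replicate 3. DESeq2 called neither, with adjusted p-values of 0.0348 for IFIT2 and 0.11 for IFIT3. DTX3L, a ubiquitin ligase that pairs with PARP9 and was also named after its values were seen, had the smallest change of the called interferon genes, with 107, 77.8 and 87.3 CPM in H1047R vehicle, against 64.8, 73.99 and 64.3 CPM in control vehicle (0.42 ± 0.0729, adjusted p = 0.0008). It was no longer called without replicate 1 (0.28 ± 0.0599, adjusted p = 0.00968).

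ISG15 is a ubiquitin-like protein that is joined to other proteins by a short chain of enzymes. Of the 6 tested genes of the ISG15 list, 2 rose at the 0.001 threshold, beside 0.141% of all genes. The other members were UBA7 and UBE2L6, enzymes of that chain, USP18, which removes ISG15, and ISG20, an exonuclease outside the chain. ISG15 itself was at 61.7, 27.3 and 27.7 CPM in H1047R vehicle, against 16.9, 20.6 and 13.6 CPM in control vehicle (1.17 ± 0.164, adjusted p = 2.85e-05). HERC5, the main ligase for ISG15 in human cells, was at 24.4, 8.80 and 12.97 CPM in H1047R vehicle, against 4.68, 4.96 and 5.18 CPM in control vehicle (1.63 ± 0.195, adjusted p = 2.27e-06). Neither gene overlapped between the groups. Both were called without replicate 1 (0.67 ± 0.0829 for ISG15 and 1.13 ± 0.123 for HERC5), HERC5 kept its call with each library left out, and ISG15 reached 0.00187 without control vehicle replicate 3. HERC6, the ISG15 ligase of the mouse, was counted with the effectors and was at 32.2, 11.9 and 13.9 CPM in H1047R vehicle, against 7.96, 9.39 and 6.77 CPM in control vehicle (1.24 ± 0.196, adjusted p = 0.000208), with 0.66 ± 0.109 without replicate 1. It reached 0.00409 without control vehicle replicate 3, and DESeq2 gave it 0.0535. For ISG15 and HERC5, DESeq2 gave adjusted p-values of 0.0392 and 0.00196.

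Upstream of these genes, fewer members changed. RIGI, the sensor of viral RNA ends, was at 51.02, 23.3 and 29.4 CPM in H1047R vehicle, against 17.1, 21.4 and 15.9 CPM in control vehicle (0.91 ± 0.139, adjusted p = 0.00012). RIGI was the 1 called gene of 14 sensors and adaptors, beside 0.141% of all genes called higher. It was at 0.52 ± 0.0814 without replicate 1 (adjusted p = 3.04e-05), at an adjusted p of 0.00334 without control vehicle replicate 3 and of 0.0568 in DESeq2. None of the 17 interferon receptor and transcription factor genes was called. JAK1, a kinase bound to the interferon receptors, was at 273, 286 and 294 CPM in H1047R vehicle, against 271, 281 and 288 CPM in control vehicle (0.02 ± 0.0387, adjusted p = 0.873).

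Transcripts of the interferons had few or no counts in the 6 vehicle libraries, and none of them was called. IFNE, named after its values were seen, had the most. It had 11, 5 and 4 counts in H1047R vehicle and 12, 10 and 3 in control vehicle (adjusted p = 0.902 in edgeR). A count of 0 allows for up to 3 counts in a library, for counting error alone. IFNB1 had 0, 1 and 0 counts in H1047R vehicle and 0 counts in each control vehicle library. IFNL1 had 6, 1 and 4 counts in H1047R vehicle and 0 in each control vehicle library (log2 fold change 5.12, adjusted p = 0.0624 in edgeR). Its groups did not overlap, but it did not pass the threshold. With insulin, IFNL1 had 37, 31 and 33 counts in H1047R libraries and 0 in each control library. All IFNA genes listed, IFNG, IFNW1 and IFNK had 0 counts in the 6 libraries. CXCL10 had 1, 0 and 1 counts in H1047R vehicle and 0 in each control library. CCL5, a chemokine named after its values were seen, had 32, 11 and 10 counts in H1047R vehicle, against 1, 3 and 4 in control vehicle, and did not pass the threshold (adjusted p = 0.01). The 2 most abundant members of the list did not pass it either, with TNFSF10 at 13.8, 8.92 and 9.69 CPM in H1047R vehicle, against 9.29, 9.03 and 8.12 CPM in control vehicle (0.28 ± 0.107, adjusted p = 0.226) and CCL2 at 14.5, 10.9 and 10.7 CPM in H1047R vehicle, against 12.8, 8.99 and 8.96 CPM in control vehicle (0.22 ± 0.113, adjusted p = 0.432). Without replicate 1 both were at 0.07. Of the 8 tested interferon ligands and induced chemokines, 7 had a positive log2 fold change (50.5% of all genes). Their median was 2.37, and 2.11 without replicate 1, but only 2 of the 8 averaged at least 1 CPM. Of the 18 tested genes of MHC class I presentation none was called, and the median log2 fold change was 0.09, and 0.04 without replicate 1. B2M, the light chain of class I molecules, was at 662, 548 and 550.1 CPM in H1047R vehicle, against 596, 514 and 523 CPM in control vehicle, so that the groups overlapped.

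**Figure D2:**
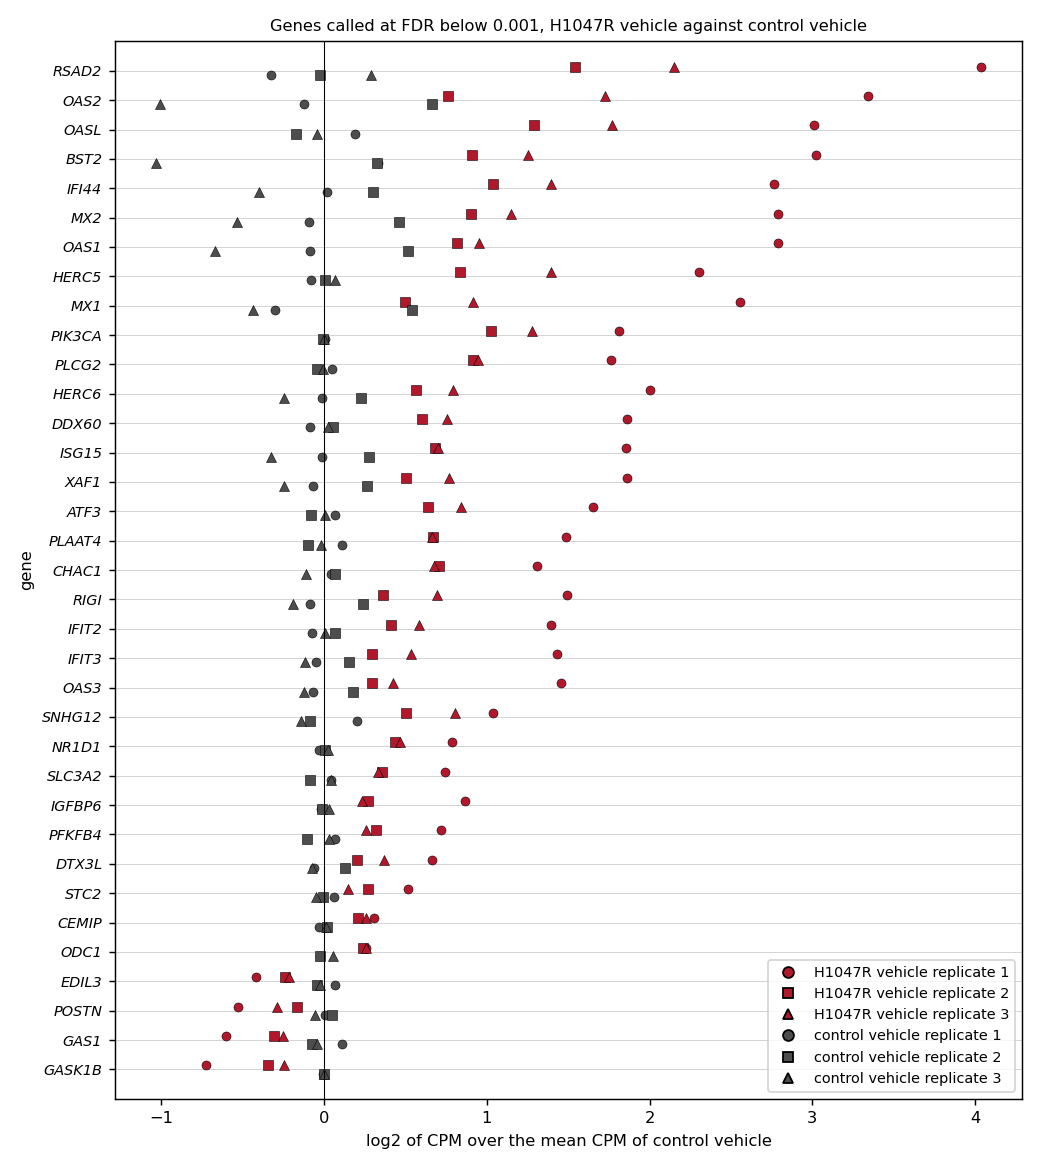
Called genes, one per row (35 of the 36), with the log2 of each library's CPM over the mean CPM of control vehicle; red symbols are H1047R vehicle, grey symbols control vehicle, and circles, squares and triangles are replicates 1, 2 and 3. Replicate 1 of H1047R vehicle is the farthest from the controls in each row, and MX1 is the row in which red and grey overlap.

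Genes of the amino acid response, which the transcription factor ATF4 drives when amino acids are short or proteins misfold, held 3 called members of 33. All 3 were higher, beside 0.141% of all genes. CHAC1, which degrades glutathione, was at 8.63, 5.68 and 5.55 CPM in H1047R vehicle, against 3.58, 3.64 and 3.22 CPM in control vehicle (0.92 ± 0.134, adjusted p = 6.21e-05). SLC3A2, the shared heavy chain of several amino acid exchangers, was at 139.8, 107 and 105 CPM in H1047R vehicle, against 86.1, 78.7 and 86.1 CPM in control vehicle (0.49 ± 0.0620, adjusted p = 7.94e-06). STC2, a secreted glycoprotein, was at 118, 99.2 and 91.2 CPM in H1047R vehicle, against 85.8, 81.95 and 79.4 CPM in control vehicle (0.32 ± 0.0554, adjusted p = 0.000812). In each the groups did not overlap. Of the 33 members, 29 had a positive log2 fold change (50.5% of all genes), with a median of 0.13, and 8 were higher at an FDR below 0.05 (0.624% of all genes). Without replicate 1 the median was 0.10, 3 passed 0.05 and SLC3A2 alone stayed below 0.001 (0.34 ± 0.0479, adjusted p = 2.07e-06), with CHAC1 at 0.68 ± 0.131 (adjusted p = 0.00203) and STC2 at 0.20 ± 0.0481 (adjusted p = 0.0335). SLC3A2 kept its call with each library left out. None of 31 chaperone and degradation genes of the unfolded protein response was called, with a median of 0.01. Its most abundant members were P4HB, a disulfide isomerase, at 1358, 1322 and 1293 CPM in H1047R vehicle, against 1337, 1309 and 1353 CPM in control vehicle, and CALR, a lectin chaperone, at 1173, 1218 and 1222 CPM in H1047R vehicle, against 1180, 1241 and 1243 CPM in control vehicle, both with overlapping groups.

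ATF3, a stress-induced transcription factor, was the 1 called gene of 33 immediate early and MAPK feedback genes, beside 0.141% of all genes called higher. ATF3 was at 15.2, 7.52 and 8.66 CPM in H1047R vehicle, against 5.06, 4.57 and 4.85 CPM in control vehicle (1.11 ± 0.149, adjusted p = 1.52e-05). It was at 0.74 ± 0.114 without replicate 1 (adjusted p = 1.84e-05) and kept its call with each library left out. The list had 27 positive log2 fold changes (50.5% of all genes) and a median of 0.10, and 0.04 without replicate 1. PFKFB4, an enzyme that sets glycolytic flux, was the 1 called gene of 37 hypoxia and glycolysis genes, beside 0.141% of all genes called higher. PFKFB4 was at 40.8, 30.96 and 29.7 CPM in H1047R vehicle, against 26.0, 23.1 and 25.4 CPM in control vehicle (0.45 ± 0.0770, adjusted p = 0.000706). It was not called without replicate 1 (0.29 ± 0.0668, adjusted p = 0.0271). In that list 34 of 37 log2 fold changes were positive (50.5% of all genes) and 10 were higher at an FDR below 0.05 (0.624% of all genes), and 2 were without replicate 1. The median was 0.14, and 0.08 without replicate 1. Its median member was at 0.26, 0.12 and 0.04 log2 units over the control mean in H1047R replicates 1, 2 and 3.

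Genes of the extracellular matrix moved both ways, with 2 of 54 called higher and 1 lower (0.141% and 0.0176% of all genes). CEMIP, which breaks down hyaluronan, was one of those higher, at 292, 273 and 283 CPM in H1047R vehicle, against 231, 239 and 239 CPM in control vehicle (0.26 ± 0.0424, adjusted p = 0.000397). The replicates of CEMIP lay close together, so that its fold change differed little without replicate 1 (0.23 ± 0.0443, adjusted p = 0.00203), though it was then no longer called. POSTN, the matrix protein periostin, was at 246, 316 and 289.5 CPM in H1047R vehicle, against 355, 366 and 341 CPM in control vehicle, with means of 284 ± 35.5 CPM in H1047R vehicle and 354 ± 12.3 CPM in control vehicle (SD, n = 3) and a log2 fold change of -0.32 ± 0.0501 (adjusted p = 0.000186). It was the 1 gene that fell whose call held without replicate 1 (-0.23 ± 0.0424, adjusted p = 0.000924), and it reached 0.00556 without control vehicle replicate 2. At an FDR below 0.05, 6 members were lower and 2 higher (0.589% and 0.624% of all genes). Without replicate 1 these counts were 3 and 2, beside 27 lower and 42 higher among all genes tested. Among the 49 members above 1 CPM, the range ran from -0.38 (DCN) to 0.54 (COL16A1). The summed stromal markers, some of which are matrix genes, were lower in the H1047R vehicle libraries as given above, and what share of the matrix values moved with them was not tested.

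The other genes that fell were GAS1, a membrane-anchored co-receptor for Hedgehog ligands, GASK1B, a Golgi protein of a kinase-like family, and EDIL3, an integrin-binding matrix protein. GAS1 was at 38.05, 46.7 and 48.4 CPM in H1047R vehicle, against 62.2, 54.7 and 56.1 CPM in control vehicle (-0.38 ± 0.0654, adjusted p = 0.000747). GASK1B was at 25.7, 33.5 and 35.9 CPM in H1047R vehicle, against 42.4, 42.6 and 42.6 CPM in control vehicle (-0.42 ± 0.0716, adjusted p = 0.000612). EDIL3 was at 76.9, 86.9 and 88.5 CPM in H1047R vehicle, against 108, 99.7 and 101 CPM in control vehicle (-0.29 ± 0.0489, adjusted p = 0.000612). All 3 had their lowest value in replicate 1, and no H1047R library reached the controls. Without replicate 1 none of the 3 was called, with -0.28 ± 0.0601 for GAS1 (adjusted p = 0.00826), -0.30 ± 0.0628 for GASK1B (adjusted p = 0.00761) and -0.23 ± 0.0491 for EDIL3 (adjusted p = 0.00761).

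The remaining genes that rose belonged to none of the lists. PLCG2, a phospholipase that cleaves the lipid substrate of PI3K, was at 3.49, 1.95 and 1.99 CPM in H1047R vehicle, against 1.07, 0.999 and 1.03 CPM in control vehicle (1.25 ± 0.211, adjusted p = 0.000589). PLAAT4, a phospholipase and acyltransferase induced by retinoids and interferon, was at 23.99, 13.6 and 13.5 CPM in H1047R vehicle, against 9.21, 7.995 and 8.45 CPM in control vehicle (0.99 ± 0.127, adjusted p = 8.02e-06). For both, replicates 2 and 3 lay close to each other and above the controls. PLCG2 was at 0.93 ± 0.220 without replicate 1 and no longer called (adjusted p = 0.0368), while PLAAT4 kept its call with each library left out (0.66 ± 0.0914 without replicate 1). The next 4 genes were named after their values were seen. NR1D1, the circadian repressor REV-ERB alpha, was at 22.3, 17.5 and 17.9 CPM in H1047R vehicle, against 12.6, 12.99 and 13.2 CPM in control vehicle (0.57 ± 0.0808, adjusted p = 3.37e-05) and, with PIK3CA and OASL, was called under all 14 settings tried. SNHG12, a long noncoding RNA that hosts small nucleolar RNAs, was at 9.64, 6.66 and 8.20 CPM in H1047R vehicle, against 5.41, 4.43 and 4.25 CPM in control vehicle (0.79 ± 0.117, adjusted p = 7.57e-05). IGFBP6, a binding protein for insulin-like growth factors, was at 98.5, 65.2 and 63.6 CPM in H1047R vehicle, against 53.4, 53.5 and 55.2 CPM in control vehicle (0.49 ± 0.0833, adjusted p = 0.000664). ODC1, the rate-limiting enzyme of polyamine synthesis, was at 126, 124 and 126 CPM in H1047R vehicle, against 103, 103 and 109 CPM in control vehicle (0.25 ± 0.0437, adjusted p = 0.000747), with the replicates of each group within a few CPM. Without replicate 1 the log2 fold changes were 0.45 ± 0.0809 for NR1D1, 0.65 ± 0.122 for SNHG12, 0.25 ± 0.0525 for IGFBP6 and 0.24 ± 0.0480 for ODC1, with adjusted p-values of 0.000706 for NR1D1, 0.00138 for SNHG12, 0.00761 for IGFBP6 and 0.00257 for ODC1, so that NR1D1 kept its call. ODC1 lost its call with any 1 of the 6 libraries left out, with adjusted p-values between 0.00125 and 0.0138.

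Several lists held no called gene. The 25 NF-kB targets had a median log2 fold change of 0.22, and 0.08 without replicate 1. Of the 25, 19 had a positive log2 fold change (50.5% of all genes). At an FDR below 0.05, 2 were higher (0.624% of all genes), and none without replicate 1. Their most abundant members ICAM1, an adhesion molecule, and NFKB1, a subunit of the factor, were at 0.06 ± 0.0487 and 0.12 ± 0.0517. Genes of sterol and fatty acid synthesis (32 tested) had a median of 0.06, and 0.02 without replicate 1, with SCD, the stearoyl-CoA desaturase, at 4171, 3919 and 3963 CPM in H1047R vehicle, against 3626, 3657 and 3887 CPM in control vehicle (0.11 ± 0.0321, adjusted p = 0.0801) and FADS2, another desaturase, at -0.04 ± 0.0350. The 25 p53 targets had a median of 0.03, with the cyclin CCNG1 at -0.15 ± 0.0472 and the death receptor TNFRSF10B at 0.05 ± 0.0403. The 40 genes of S phase and mitosis were centred on 0.00, with the topoisomerase TOP2A at -0.07 ± 0.0338 and the proliferation marker MKI67 at 0.03 ± 0.0395. None of these named genes passed the threshold. The 23 YAP targets had a median of 0.02, with the receptor kinase AXL at 0.01 ± 0.0388 and MYOF at 0.10 ± 0.0360.

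Genes of respiration and translation had medians slightly below 0 and no call. The 42 nuclear genes of the respiratory chain had a median of -0.03, with the ATP synthase subunits ATP5F1B at 0.04 ± 0.0339 and ATP5F1A at 0.05 ± 0.0349. The 13 genes of the mitochondrial genome had a median of -0.07 and 2 positive log2 fold changes, with MT-CO1 at 3696, 3637 and 3587 CPM in H1047R vehicle, against 3668, 3690 and 3739 CPM in control vehicle and MT-ND4 at 2847, 2775 and 2761 CPM in H1047R vehicle, against 3059, 2791 and 2814 CPM in control vehicle. The 77 cytosolic ribosomal protein genes had a median of -0.06, and 17 of them were positive, with RPLP0 at -0.12 ± 0.0371 and RPS3 at 0.01 ± 0.0399. By library, their median member was at -0.10, -0.01 and -0.08 log2 units from the control mean in H1047R vehicle, against 0.03, 0.03 and -0.06 in control vehicle, so the groups overlapped.

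**Figure D3:**
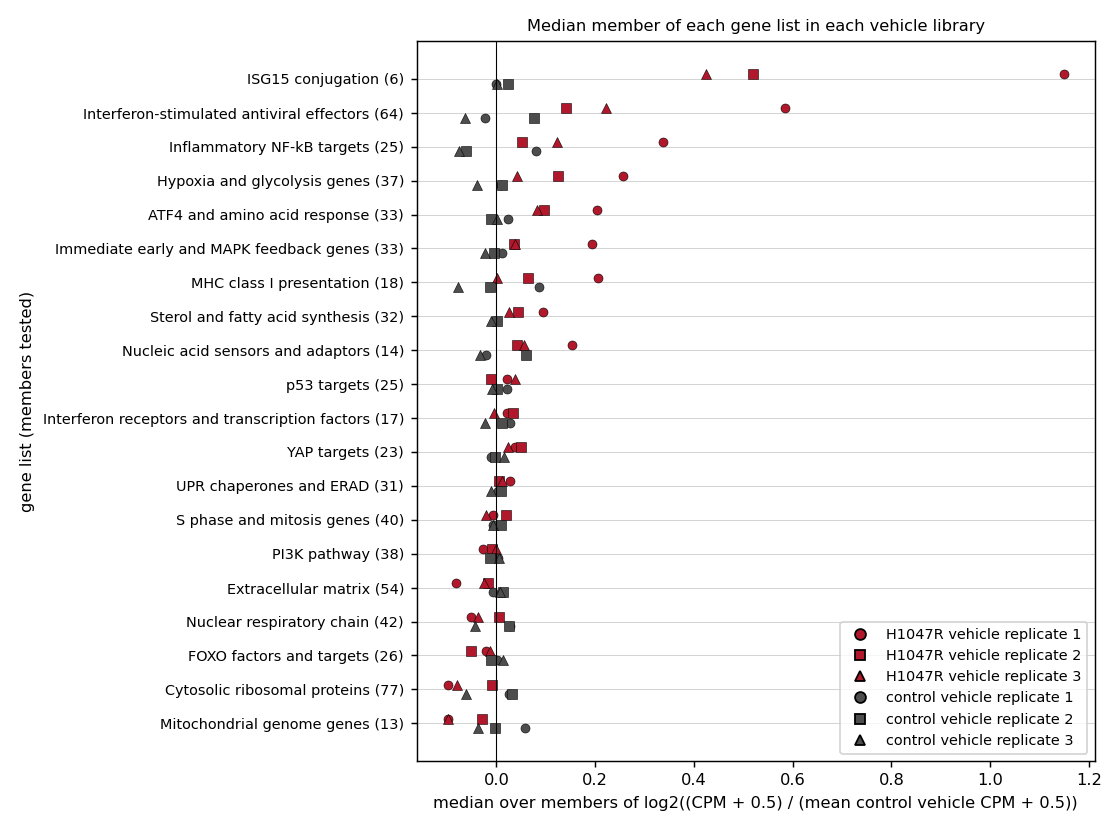
Median over the members of each pathway gene list, except that of interferon ligands and induced chemokines, of the log2 ratio of CPM + 0.5 to the control vehicle mean + 0.5, one list per row with the members tested in parentheses; red symbols are H1047R vehicle, grey symbols control vehicle, and circles, squares and triangles are replicates 1, 2 and 3. The interferon effectors stand at 0.59, 0.14 and 0.22 in H1047R vehicle and the ISG15 genes at 1.15, 0.52 and 0.42, while the PI3K pathway lies near 0 in each library.

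Since the PIK3CA level differed between the H1047R replicates, the called genes were set beside it. PIK3CA had the order replicate 1, replicate 3, replicate 2. Of the 35 other called genes, 26 had their H1047R vehicle libraries in the same order (or in the reverse of it where the gene fell), and all 18 interferon genes were among them. Over all genes tested 4443 (19.5%) followed the order. Replicate 1 was the highest, or the lowest where the gene fell, in 9576 genes. A gene in the order is always one of these, so the matching background is 4443 of 9576. The called genes outside the order were PLAAT4, CHAC1, SLC3A2, IGFBP6, PFKFB4, STC2, EDIL3, GAS1 and GASK1B, none of them in the interferon lists. Replicate 1 was the farthest from the controls in each of the 36 called genes, beside 42.1% of all genes. The 3 libraries give 3 points and no correlation was computed from them. The order among replicates 2 and 3 rests on a smaller step in PIK3CA, 180.1 against 215 CPM. In 35 of the 36 genes, 31 higher and 4 lower, the groups did not overlap, beside 14.4% of all genes (7.55% higher and 6.84% lower). The 36 genes were called from these same values. That their groups separated, and that replicate 1 was the farthest, therefore follows in part from the call.

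Without replicate 1 of H1047R vehicle, 18 genes were called (0.0788% of those tested), 17 higher and 1 lower, and all 18 were among the 36. They were 12 interferon genes, namely RSAD2, OAS2, OASL, IFI44, HERC5, HERC6, DDX60, ISG15, XAF1, RIGI, IFIT2 and IFIT3, and PIK3CA, ATF3, PLAAT4, NR1D1, SLC3A2 and POSTN. The other 18 kept their sign, and each of the 36 had an adjusted p below 0.05. The median log2 fold change of the 18 called interferon genes was 1.41 with all libraries and 0.68 without replicate 1. The controls mattered as well, since 14, 15 and 12 of the 36 stayed called without control vehicle replicates 1, 2 and 3, while 35 stayed called without replicate 2 and 35 without replicate 3 of H1047R vehicle. In total, 10 genes kept their call with each of the 6 libraries left out in turn, and these were PIK3CA, OASL, IFI44, HERC5, DDX60, ATF3, PLAAT4, IFIT2, NR1D1 and SLC3A2. The highest adjusted p of the 36 with 1 library left out was 0.0368 (PLCG2 without H1047R vehicle replicate 1). With genes held to 1 CPM in at least 3 libraries, PIK3CA, OASL, HERC5, PLAAT4, NR1D1 and SLC3A2 were the 6 genes called, and the adjusted p of the 36 did not exceed 0.0195 (OAS3). DESeq2 called 18 genes, 12 of them among the 36. Of these 12, OASL was the only interferon gene. The rest were PIK3CA, PLCG2, CHAC1, SNHG12, NR1D1, STC2, CEMIP, ODC1, EDIL3, POSTN and GASK1B. All other called interferon genes lost their call in DESeq2, with adjusted p-values from 0.00108 (RSAD2) to 0.233 (OAS3). DESeq2 gave an adjusted p above 0.05 to OAS1, MX1, HERC6, XAF1, RIGI, IFIT3, OAS3, IGFBP6 and DTX3L.

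**Figure D4:**
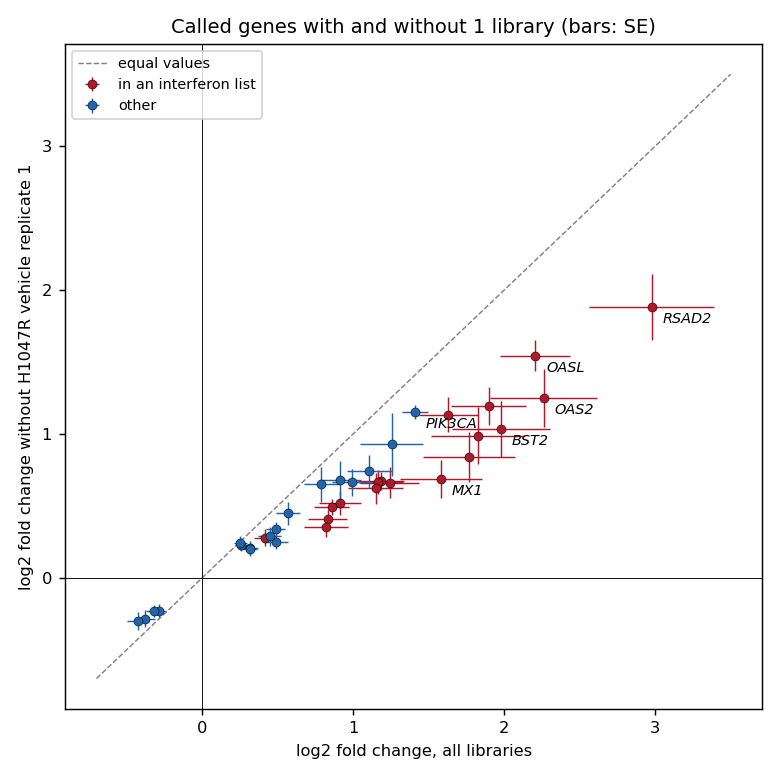
Log2 fold change of the 36 called genes with all libraries (horizontal axis) and without H1047R vehicle replicate 1 (vertical axis), with bars of 1 SE, interferon genes in red and the others in blue; the dashed line marks equal values. Each gene keeps its sign, and the 18 interferon genes lie below the line, with RSAD2 at 2.98 and 1.88 and DTX3L at 0.42 and 0.28.

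The plasmid contrast was read again in the 6 insulin libraries, whose levels do not enter the vehicle contrast, although 1 fit set the spread for both. All 36 genes were called there in the same direction, beside 23.5% of all genes (11.4% higher and 12.0% lower), and each had a log2 fold change of larger absolute value there. RSAD2 was at 99.0, 86.2 and 98.1 CPM in H1047R insulin, against 0.404, 0.550 and 0.303 CPM in control insulin (7.79 ± 0.278 on the log2 scale). OASL was at 5.66 ± 0.203, ISG15 at 3.46 ± 0.151, SLC3A2 at 1.54 ± 0.0595 and POSTN at -2.19 ± 0.0532. The difference of the log2 fold changes between insulin and vehicle passed the threshold for 34 of the 36, beside 9.07% of all genes. BST2 (difference 2.12, adjusted p = 0.00117) and ODC1 (difference 0.03, adjusted p = 0.798) did not pass. ODC1 was at 0.25 ± 0.0437 with vehicle and 0.28 ± 0.0419 with insulin. In these genes, replicate 1 of H1047R vehicle lay between replicates 2 and 3 and the H1047R insulin libraries. Over the 36 genes it stood a median of 21.3% of the way from the mean of replicates 2 and 3 to the H1047R insulin mean (quartiles 15.8 and 25.5%), with 21.8% for PIK3CA, 10.6% for RSAD2 and 48.1% for BST2. The 36 genes were called with replicate 1 among the libraries, and it was the farthest from the controls in each. That the shares were positive therefore follows from the choice of genes, and genes not called were not summarized in this way. What set this library apart was not tested.

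**Figure D5:**
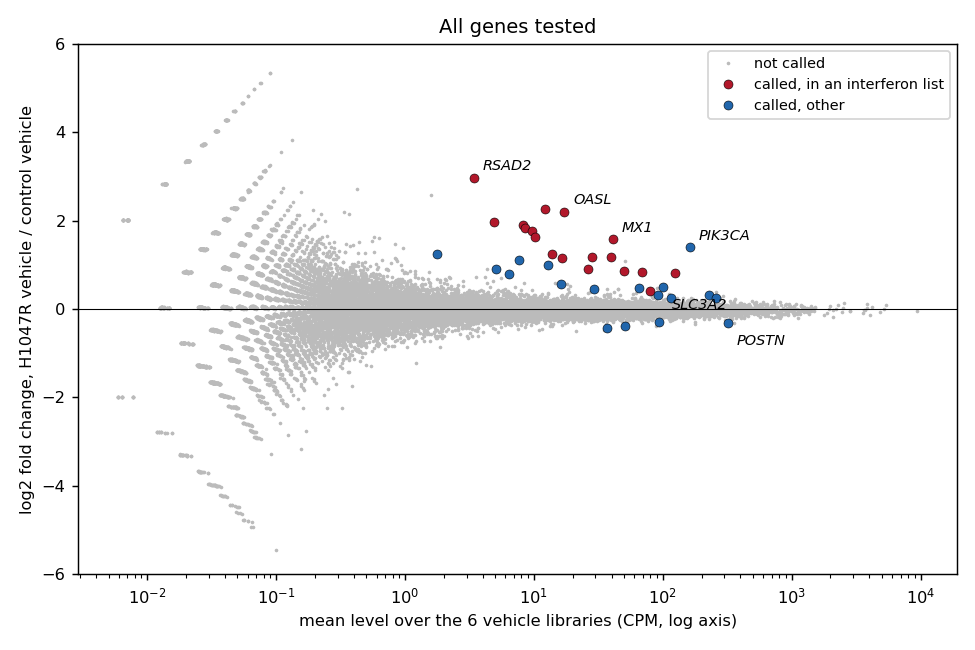
Log2 fold change of H1047R vehicle over control vehicle against mean level in CPM over the 6 vehicle libraries (log axis) for the 22756 genes tested; red points are called interferon genes, blue points other called genes, grey points genes not called. The called genes lie above 1 CPM, and 32 of 36 are above 0.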

How the data were processed

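Gene counts came from STAR and were deposited by the authors without normalization; per the methods, reads were trimmed with cutadapt and Trim Galore and aligned to hg38, with libraries from 500 ng of RNA and a strand-specific mRNA kit. For the aligner and the trimmers no version is given in the sources used here, and the annotation the methods name is a GENCODE release of the mouse, so the human release is not known. The counts taken were those on the reverse strand (93.5 to 93.7% of strand-specific counts); only uniquely placed read pairs are counted. Reads not assigned to a gene (unmapped 3.12 to 4.09%, multiply placed 8.48 to 15.4%, without a feature 3.91 to 4.55%, ambiguous 3.31 to 3.61%) were left out. Of 60617 identifiers, 60357 matched GENCODE 44, which gave names and coordinates.

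Genes averaging at least 1 count over the 12 libraries were tested with edgeR 4.0.16 in R 4.3.3 (TMM scaling, glmQLFit and glmQLFTest, 1 fit of all 12 libraries, 8 residual degrees of freedom), with p-values adjusted over all genes by the Benjamini-Hochberg procedure and calls at an FDR below 0.001. The study used DESeq2 with independent hypothesis weighting; DESeq2 1.42.0 was run here as an alternative with Benjamini-Hochberg values. SE is the absolute log2 fold change over the square root of F. CPM are scaled by TMM, and list medians by library use log2 of CPM + 0.5. Quality measures were compared by two-sided exact permutation tests.

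Genes were named by a rule: PIK3CA and RSAD2, the 20 called genes with the largest change in a direction (at least 0.5 CPM), all called genes where fewer, and from each of 21 lists up to 3 called members or the 2 most abundant. The ends of a list's range, other PI3K genes and genes so marked were named after their values were seen. The lists and the genes were chosen with earlier results of these data known, so they are not independent evidence. The test was checked on simulated data before use, with the same mean per gene for all replicates of a group. Some genes simulated without a change were called in it. No simulated library stood apart as replicate 1 of H1047R vehicle did, so that case was not checked. The alternatives were size factors, library totals, filters, DESeq2, unstranded counts, the vehicle libraries alone, a replicate block, and each library left out. Protein data and the RSAD2 knockdown of the study were not analysed here. A few genes that the rule names, 1 of them called, are not reported here.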

Additional observations from a re-analysis of the deposited data

Results flagged for a closer look

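For 34 of the 36 genes called with vehicle, the effect of H1047R differed between the insulin and the vehicle libraries in a test of the difference itself (edgeR, FDR below 0.001). The values are given for all but 1 of them and are the log2 fold change of H1047R over control with insulin minus that with vehicle, so a positive value is a larger rise with insulin. Among the interferon genes they were 4.81 for RSAD2, 3.82 for OAS2, 3.45 for OASL, 3.0 for IFI44, 3.04 for MX2, 3.17 for OAS1, 2.55 for HERC5, 3.0 for MX1, 2.37 for HERC6, 2.48 for DDX60, 2.30 for ISG15, 2.20 for XAF1, 2.43 for RIGI, 2.40 for IFIT2, 2.73 for IFIT3, 1.86 for OAS3 and 1.22 for DTX3L. Among the other genes that rose they were 1.72 for PIK3CA, 2.81 for PLCG2, 1.89 for ATF3, 1.61 for PLAAT4, 1.02 for CHAC1, 1.40 for SNHG12, 1.30 for NR1D1, 1.05 for SLC3A2, 1.20 for IGFBP6, 0.90 for PFKFB4, 0.77 for STC2 and 1.51 for CEMIP. Among the genes that fell they were -0.79 for EDIL3, -1.87 for POSTN, -1.66 for GAS1 and -1.11 for GASK1B. PIK3CA is one of these genes, so the H1047R libraries with insulin and with vehicle also differed in the effect on PIK3CA itself.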

How the results depend on the processing

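The count of 36 genes called in H1047R vehicle against control vehicle was 46 with DESeq2's size factors in edgeR, 46 with library totals, 46 with unstranded counts and 33 with the vehicle libraries alone. It was 152 without a filter on low counts, 6 with genes held to 1 CPM in at least 3 libraries, 18 in DESeq2 and 276 at an FDR below 0.05. With 1 library left out it ranged from 14 to 100. In 2 settings chosen after seeing the data it was 10 in DESeq2 without H1047R vehicle replicate 1, and 22 without that library and control vehicle replicate 2. At the 0.05 threshold the insulin comparison called 8774 genes, against 5340, and the difference of the effects 4848, against 2064. None of the 36 genes changed sign in any of these settings. Of the 36 genes, 30 were no longer called with the 1 CPM filter (13726 genes tested), 24 in DESeq2 and 5 with the vehicle libraries alone. The replicate numbers did not pair the libraries, since deviations of same-numbered H1047R vehicle and control vehicle libraries had correlations of -0.015, -0.038 and -0.016. With the replicate number as a block, 53 genes were called and none of the 36 was lost. Why the counts moved with these settings was not tested. Depth limits the genes with a few counts per library.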

Other observations

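Among the listed genes, 9 lay just outside the threshold in H1047R vehicle against control vehicle, with adjusted p-values between 0.001 and 0.0015 in edgeR, and they were picked after their values were seen. Of these, 6 were interferon genes. IFI44L, a relative of IFI44, was at 5.60, 1.25 and 1.37 CPM in H1047R vehicle, against 0.457, 0.714 and 0.0934 CPM in control vehicle (log2 fold change 2.58 ± 0.472, and 1.53 without H1047R vehicle replicate 1). IFI6, a small membrane protein, was at 122, 41.9 and 45.6 CPM in H1047R vehicle, against 33.04, 40.05 and 24.1 CPM in control vehicle (log2 fold change 1.09 ± 0.196, and 0.41 without H1047R vehicle replicate 1). USP18, the ISG15 protease, was at 7.49, 4.83 and 4.60 CPM in H1047R vehicle, against 2.97, 2.93 and 3.17 CPM in control vehicle (log2 fold change 0.90 ± 0.164, and 0.64 without H1047R vehicle replicate 1). In all 3 the H1047R libraries were above the controls, with replicate 1 the highest. PARP9, the partner of DTX3L, was at 65.1, 43.5 and 47.3 CPM in H1047R vehicle, against 36.5, 40.4 and 36.03 CPM in control vehicle (log2 fold change 0.46 ± 0.0835, and 0.26 without H1047R vehicle replicate 1). ZC3HAV1, which binds viral RNA, was at 117, 94.5 and 102 CPM in H1047R vehicle, against 82.6, 84.3 and 89.5 CPM in control vehicle (log2 fold change 0.29 ± 0.0532, and 0.20 without H1047R vehicle replicate 1). APOL6 was at 75.5, 58.9 and 62.96 CPM in H1047R vehicle, against 51.7, 53.8 and 49.99 CPM in control vehicle (log2 fold change 0.34 ± 0.0612, and 0.23 without H1047R vehicle replicate 1).

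The others belonged to glycolysis and the cell cycle. HK2, a hexokinase, was at 107, 83.3 and 85.2 CPM in H1047R vehicle, against 70.3, 74.4 and 75.3 CPM in control vehicle (log2 fold change 0.33 ± 0.0587, and 0.20 without H1047R vehicle replicate 1). PFKFB3, a relative of PFKFB4, was at 83.1, 62.1 and 62.8 CPM in H1047R vehicle, against 56.2, 52.1 and 52.8 CPM in control vehicle (log2 fold change 0.37 ± 0.0662, and 0.21 without H1047R vehicle replicate 1). CDK1, the kinase that drives entry into mitosis, was at 302, 322 and 326 CPM in H1047R vehicle, against 385, 364 and 357 CPM in control vehicle (log2 fold change -0.22 ± 0.0397, and -0.19 without H1047R vehicle replicate 1) and was the 1 gene of the 9 that was lower in H1047R vehicle. None of the 9 passed the 0.001 threshold.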
